A study of Mus musculus with 6 samples.

Results

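The genes described here are 10 members of the JAK-STAT pathway: the transcription factors Stat3, Stat5a, Stat5b and Stat6, the feedback inhibitors Socs1, Socs2, Socs3 and Cish, and Pim1 and Bcl6, which are known to respond to STATs. They were chosen by symbol, and all 10 of 10 have a row among the 15443 gene symbols of the table. RNA came from wild-type C57BL/6J bone marrow cells, a mixture of blood cells and their progenitors, kept for 3 days with FLT3LG at 50 ng/ml, the cytokine that drives dendritic cell growth. The 3 midkine libraries (replicates 3, 4 and 5) also received recombinant human midkine, a secreted heparin-binding growth factor, at 10 ng/ml, and the 3 control libraries (replicates 1, 2 and 4) received none. The comparison addressed how midkine affects marrow cells grown with FLT3LG. Nothing in the labels ties a replicate to its own mouse or culture. The p-values therefore describe the spread between libraries, which may be technical.

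Cytokine receptors of this pathway activate JAK kinases, which phosphorylate STATs. Paired STATs then enter the nucleus and bind DNA, commonly at the palindrome TTCNNNGAA, and STAT6 also where TTC and GAA lie 4 bases apart. SOCS proteins and CISH are made in response and damp the same receptors, so that their transcripts are read widely as a sign of recent STAT activity. In marrow cultures, STAT3 is known to support dendritic cell growth driven by FLT3, and STAT5 acts downstream of GM-CSF and related cytokines.

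Promoter sequence is shown for the members that hold a STAT-type palindrome near their start, to set the DNA element beside the transcript levels. The windows span 300 bases around RefSeq starts (250 before and 50 after), on build GRCm38.p6. RefSeq gave 13 windows for 9 of the 10 members, all but Socs2. TTCNNNGAA, which reads the same on both strands, was found in 4 windows of 3 members, Cish, Socs3 and Bcl6. It occurs in 8.30% of all 32851 mouse windows. The form with 4 bases between TTC and GAA, also a palindrome, was found in 0 of the 13 windows and in 6.95% of all windows. Capitals mark TTCNNNGAA matches, each sequence is written 5′ to 3′ on the strand of the gene, and a match is a description of letters and not a shown binding site.
Cish, chr9:107296409-107296708, plus strand: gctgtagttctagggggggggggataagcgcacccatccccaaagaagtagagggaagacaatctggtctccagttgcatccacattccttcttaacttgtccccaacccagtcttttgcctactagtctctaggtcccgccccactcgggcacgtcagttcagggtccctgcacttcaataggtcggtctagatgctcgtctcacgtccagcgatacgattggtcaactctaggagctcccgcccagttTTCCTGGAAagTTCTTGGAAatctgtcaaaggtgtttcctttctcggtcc
Socs3, chr11:117969317-117969616, minus strand: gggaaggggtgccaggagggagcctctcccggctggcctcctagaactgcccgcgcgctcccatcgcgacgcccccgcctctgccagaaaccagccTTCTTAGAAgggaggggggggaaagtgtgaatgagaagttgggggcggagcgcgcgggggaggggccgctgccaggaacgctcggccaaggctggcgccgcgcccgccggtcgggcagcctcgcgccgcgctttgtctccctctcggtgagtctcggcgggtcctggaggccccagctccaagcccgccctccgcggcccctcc
Bcl6, outer start, chr16:23988803-23989102, minus strand: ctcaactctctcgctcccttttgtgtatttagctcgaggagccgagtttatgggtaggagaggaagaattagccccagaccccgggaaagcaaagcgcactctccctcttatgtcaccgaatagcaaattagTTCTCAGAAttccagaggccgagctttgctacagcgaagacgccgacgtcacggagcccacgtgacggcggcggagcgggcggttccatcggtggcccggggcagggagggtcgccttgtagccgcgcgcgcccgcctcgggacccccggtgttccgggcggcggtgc
Bcl6, inner start, chr16:23981234-23981533, minus strand: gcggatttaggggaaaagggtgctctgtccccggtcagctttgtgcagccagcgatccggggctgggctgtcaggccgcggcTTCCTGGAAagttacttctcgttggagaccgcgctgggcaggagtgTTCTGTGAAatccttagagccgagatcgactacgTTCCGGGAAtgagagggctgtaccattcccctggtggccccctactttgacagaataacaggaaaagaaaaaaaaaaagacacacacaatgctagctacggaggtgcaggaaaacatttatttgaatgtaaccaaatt
The Cish window holds a pair of matches, TTCCTGGAA and TTCTTGGAA, which begin at bases 1 and 12 counted from the RefSeq start. The Socs3 match TTCTTAGAA begins 154 bases before the RefSeq start. In GENCODE M21 the Cish gene begins at 107296026 and the Socs3 gene, on the minus strand, at 117970047. By that annotation both windows lie inside the gene. The inner Bcl6 window holds 3 matches and the outer window 1. The windows listed for Stat3, Stat5a, Stat5b, Stat6, Socs1 and Pim1 do not hold these letters.

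Values are normalized counts from 3′ tag sequencing, which yields a fragment near the poly(A) end of each transcript, so levels are not scaled to gene length. Libraries held 6042165 to 7233960 reads with midkine and 5985684 to 6415043 in controls. Midkine 5 stood apart from the other libraries. It scored 86.0 on the first principal component, where midkine 3 and 4 scored −10.6 and 1.94 and the controls −28.3 to −22.7. Mitochondrial ribosomal RNA took 0.377% of its reads, a share that was 4.12 and 4.69% in the other midkine libraries and 4.91 to 6.16% in the controls. Results are therefore given with and without midkine 5. The fit without it compares only midkine 3 and 4 with the 3 controls. Midkine 5 was left out because of its own profile, so p-values of that fit can be too small. Summed marker levels were compared for 10 lists. Monocyte and macrophage markers (12 of 12 measured) came to 61089, 73068 and 99527 normalized counts in midkine 3, 4 and 5 and to 46162 to 48155 in controls. Neutrophil markers (12 of 12) summed to 177888 to 190540.1 with midkine and 124589 to 138440.1 in controls. Conventional dendritic cell markers (7 of 7) came to 2984 to 3976 with midkine and 4629 to 5173 in controls. B cell markers (9 of 10 measured) came to 3164, 2792 and 1517 in midkine 3, 4 and 5 and 1462 to 2034 in controls. The basophil, mast cell and eosinophil markers (9 of 10) came to 1836 to 2797 with midkine and 998 to 1243 in controls. Plasmacytoid dendritic cell markers (7 of 7) came to 4505 to 4893 with midkine and 5617 to 6386 in controls. T and NK cell markers (6 of 10) were low, at 80.8 to 193 with midkine and 113 to 143 in controls, with Trac and Klrb1c at 0 in at least 1 library. Megakaryocyte markers (6 of 6) came to 8697 to 13000 with midkine and 6432 to 7296 in controls. Erythroid markers (5 of 9) came to 114 to 192 with midkine and 51.3 to 84.9 in controls. Markers of stroma and endothelium (8 of 8) came to 910 to 1642 with midkine and 1366 to 1677 in controls. The groups overlapped for the B cell, T and NK cell and stromal lists and not for the other 7. The part of these differences in the results below was not tested, and in a bulk sample fewer cells of a type cannot be told apart from less RNA per cell.

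With midkine, Pim1, Stat3 and Stat5b had higher values in all 3 libraries than in any control, and Socs2 and Bcl6 had lower values. The groups overlapped for the other 5 members. Pim1, a kinase that promotes survival, had the smallest p of the members: it rose when midkine 5 was left out, and did not pass the threshold with all 6 libraries. Over all 13543 genes tested, midkine and control values did not overlap for 30.8% (15.5% higher, 15.3% lower), against 5 of the 10 members (3 higher, 2 lower). With all 6 libraries limma called 0 members and 0.0% of genes tested at an adjusted p of 0.05, and 1 member, Pim1, and 19.7% of genes tested had an unadjusted p under 0.05. edgeR called 0 members (0.0738% of genes) and DESeq2 0 of the 9 members it gave an adjusted p (5.89% of the 11704 genes with one). Without midkine 5, limma called 18.4% of all genes, 9.92% higher and 8.52% lower. Of the 10 members it called 1 higher, Pim1, and 0 lower, which is close to the share of all genes called higher. The median log2 fold change of the members was 0.47, against −0.0040 over all genes tested, and without midkine 5 it was 0.21 against −0.0020.

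**Figure D1:**
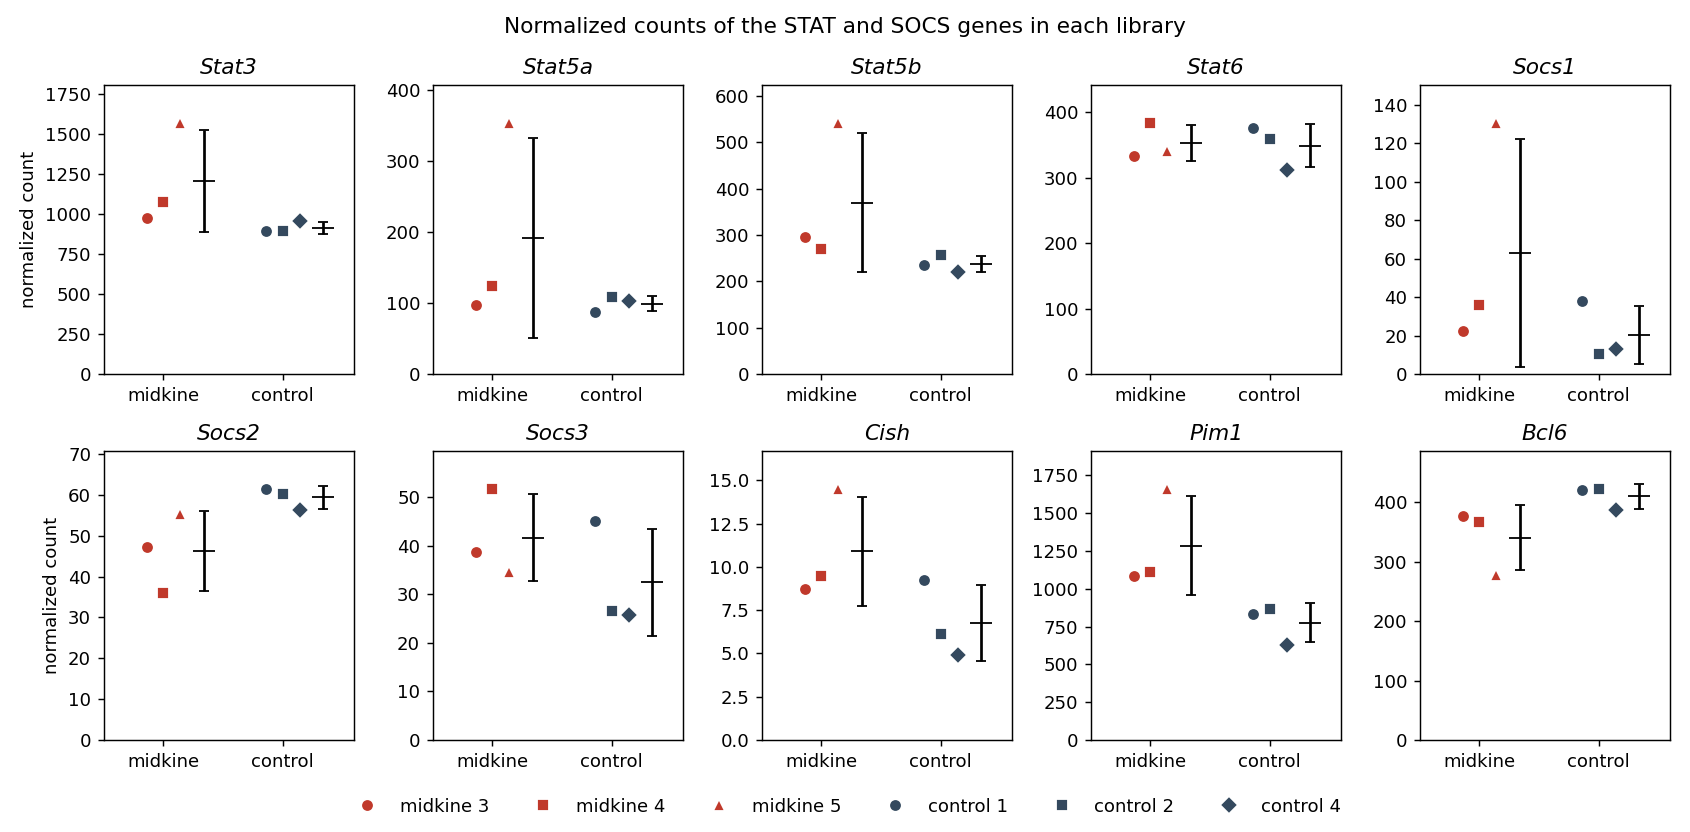
Normalized counts of each member in the 3 midkine (red) and 3 control (dark) libraries, each panel on its own linear axis from 0, with black bars for the mean ± SD (n = 3). Midkine 5 (triangle) is the highest of the 6 libraries for Stat3, Stat5a, Stat5b, Socs1, Cish and Pim1 and the lowest for Bcl6. Over all genes tested, midkine 5 is the highest library for 34.6% and the lowest for 33.7%.

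Stat3, the factor of the IL-6 family, IL-10 and G-CSF, had 977, 1079 and 1573 normalized counts in midkine 3, 4 and 5, against 893, 895 and 958 in control 1, 2 and 4. All midkine values lay above the controls, but midkine 3 exceeded the highest control by little and midkine 5 stood far above. The means were 1209.7 ± 319 with midkine and 915 ± 36.7 in controls (SD, n = 3 each), a log2 fold change of 0.37 ± 0.195 SE (limma, adjusted p = 0.324). Without midkine 5 the log2 fold change was 0.17 ± 0.10 (adjusted p = 0.269).

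Stat5a and Stat5b encode closely related factors of GM-CSF, IL-3, prolactin and growth hormone signalling. Stat5b had 297, 270.2 and 543 normalized counts in midkine 3, 4 and 5, against 235, 257 and 221 in control 1, 2 and 4. The groups did not overlap, and midkine 5 was again far above the rest. Stat5b had a log2 fold change of 0.57 ± 0.262 SE (limma, adjusted p = 0.274), and of 0.26 ± 0.124 without midkine 5 (adjusted p = 0.169). Stat5a had 97.6, 124 and 354 normalized counts in midkine 3, 4 and 5, against 87.2, 108 and 103 in control 1, 2 and 4. Midkine 3 fell within the control range, so the groups overlapped, and the level in midkine 5 was far above all other libraries. Its log2 fold change was 0.71 ± 0.429 SE (limma, adjusted p = 0.382), and 0.15 ± 0.170 without midkine 5 (adjusted p = 0.593).

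The share of Stat5a in the reads of the Stat5 pair was 24.8, 31.4 and 39.5% in midkine 3, 4 and 5, against 27.1, 29.7 and 31.7% in control 1, 2 and 4. The Wilson 95% interval of midkine 5 (36.5 to 42.6%), which covers counting error only, overlapped that of control 4 (26.9 to 36.9%) and lay above those of the other 4 libraries. The means were 31.9 ± 7.37% with midkine and 29.5 ± 2.33% in controls (difference 2.38 percentage points, two-sided exact permutation p = 0.8, where 3 against 3 cannot go below 0.1). Without midkine 5 the difference was −1.43 percentage points.

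**Figure D2:**
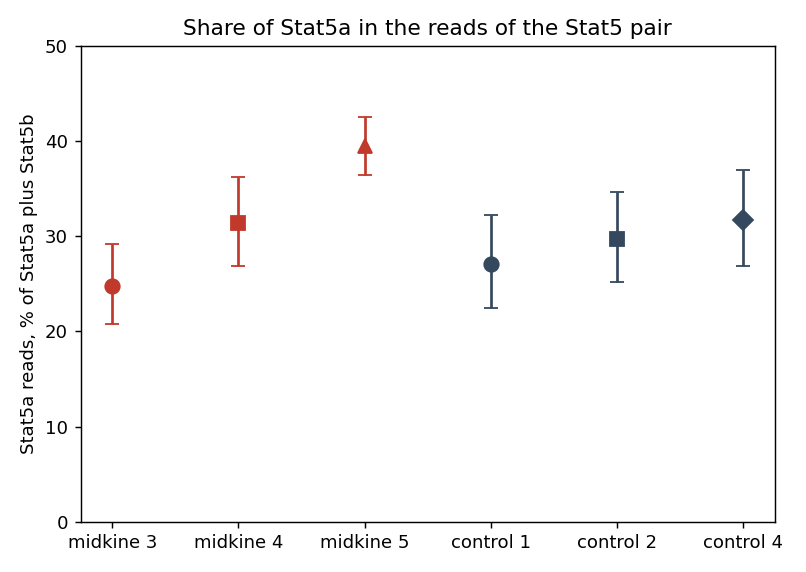
Stat5a reads as a percent of Stat5a plus Stat5b reads in each library (vertical axis from 0), with Wilson 95% intervals for counting error. Midkine 5 lies at 39.5%, and the other 5 libraries lie between 24.8 and 31.7%.

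Stat6, the factor of IL-4 and IL-13, had 333, 384 and 341 normalized counts in midkine 3, 4 and 5, against 375, 359 and 313 in control 1, 2 and 4. The groups overlapped throughout, and midkine 5 lay inside the control range. Its log2 fold change was 0.017 ± 0.152 SE (limma, adjusted p = 0.9595), and its sign depended on the libraries and scaling used.

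The genomic layout bears on how these tags are assigned. Stat5b (chromosome 11, 100780731 to 100850724, minus strand), Stat5a (100859351 to 100885169, plus) and Stat3 (100885098 to 100939540, minus) are neighbours on GRCm38 in GENCODE M21. Stat5a and Stat3 run towards each other, and their 3′ untranslated ends share 72 bases (100885098 to 100885169) on opposite strands. Stat6 (chromosome 10, 127642986 to 127660957, plus) shares 40 bases of 3′ untranslated sequence with Nab2 on the other strand. Cish shares 479 exonic bases with the antisense gene Gm17041 and 261 with the pseudogene Gm17040, both on the other strand. Bcl6 shares 21 exonic bases with Gm37419, also on the other strand. Gm17041, Gm17040 and Gm37419 have no row among the gene symbols. The library kit keeps strand, but the sources used here do not say whether counting used it. Reads from these shared stretches therefore cannot be told apart.

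Socs1, the inhibitor that acts on JAKs downstream of interferons, had 22.2, 35.9 and 131 normalized counts in midkine 3, 4 and 5, against 37.9, 10.2 and 12.8 in control 1, 2 and 4. Control 1 lay above midkine 3 and 4, so the groups overlapped, and midkine 5 was the highest library. These values rest on 23, 34 and 144 reads with midkine and 37, 10 and 13 in controls. The log2 fold change of 1.41 ± 0.684 SE was the largest of the members and had the largest SE (limma, adjusted p = 0.296). Without midkine 5 it was 0.68 ± 0.425 (adjusted p = 0.286), and without control 1 it was 1.96.

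Socs2, an inhibitor of growth hormone and STAT5 signalling, had 47.4, 35.9 and 55.4 normalized counts in midkine 3, 4 and 5, against 61.5, 60.3 and 56.2 in control 1, 2 and 4. Every midkine value lay under every control, with midkine 5 just under control 4. For Socs2 the log2 fold change was −0.38 ± 0.223 SE (limma, adjusted p = 0.374), and −0.51 ± 0.209 without midkine 5 (adjusted p = 0.0977). For Socs2, Socs3 and Stat6, unlike the other 7 members, midkine 5 lay nearer the control mean than midkine 3 and 4 did.

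Socs3, the inhibitor that binds the shared IL-6 family receptor gp130, had 38.7, 51.7 and 34.5 normalized counts in midkine 3, 4 and 5, against 45.1, 26.6 and 25.6 in control 1, 2 and 4. The groups overlapped, with control 1 above midkine 3 and 5. For Socs3 the log2 fold change was 0.38 ± 0.294 SE (limma, adjusted p = 0.488), and 0.50 ± 0.274 without midkine 5 (adjusted p = 0.224).

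Cish, an inhibitor induced by STAT5, was the lowest member, with 9, 9 and 16 reads in midkine 3, 4 and 5 and 9, 6 and 5 reads in control 1, 2 and 4. In normalized counts these were 8.70, 9.50 and 14.5, against 9.23, 6.14 and 4.93. Control 1 lay between midkine 3 and 4, so the groups overlapped. Cish had a log2 fold change of 0.62 ± 0.398 SE (limma, adjusted p = 0.403), and of 0.42 ± 0.472 without midkine 5 (adjusted p = 0.591). The groups overlapped for Cish and Socs3, which hold the palindrome, and also for Stat5a, Stat6 and Socs1, whose windows do not. A link between the palindrome and the transcript levels was not tested.

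Control 1 had the highest control value of Socs1, Socs2, Socs3 and Cish. Its Socs1 level was 37.9 normalized counts, against 10.2 and 12.8 in control 2 and 4.

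Pim1 had 1083, 1109 and 1662 normalized counts in midkine 3, 4 and 5, against 833, 865 and 629 in control 1, 2 and 4. All 3 midkine libraries lay above every control, and midkine 3 and 4 lay close together. The means were 1285 ± 327 with midkine and 776 ± 128 in controls (SD, n = 3 each), a ratio of 1.66. Pim1 had a log2 fold change of 0.71 ± 0.214 SE, higher in 3 of 3 midkine libraries (limma, adjusted p = 0.148). Without midkine 5 it was 0.51 ± 0.123 (limma, adjusted p = 0.00759), and edgeR on the same 5 libraries gave 0.51 (adjusted p = 0.00600). An antisense gene, Gm26885, overlaps the 5′ end of Pim1 on chromosome 17 (29490753 to 29491925), and had 0.908 to 5.28 normalized counts with midkine and 3.94 to 5.11 in controls.

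Bcl6, a repressor whose binding letters resemble those of STATs and which is known from germinal centre B cells, had 377, 367 and 279 normalized counts in midkine 3, 4 and 5, against 422, 423 and 387 in control 1, 2 and 4. All midkine values lay under the controls, with midkine 3 close to control 4 and midkine 5 the lowest. Bcl6 had a log2 fold change of −0.28 ± 0.168 SE (limma, adjusted p = 0.379), and of −0.14 ± 0.11 without midkine 5 (adjusted p = 0.415). Of the members with a palindrome in their window, Bcl6 had lower values in every midkine library, and the groups of Cish and Socs3 overlapped.

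**Figure D3:**
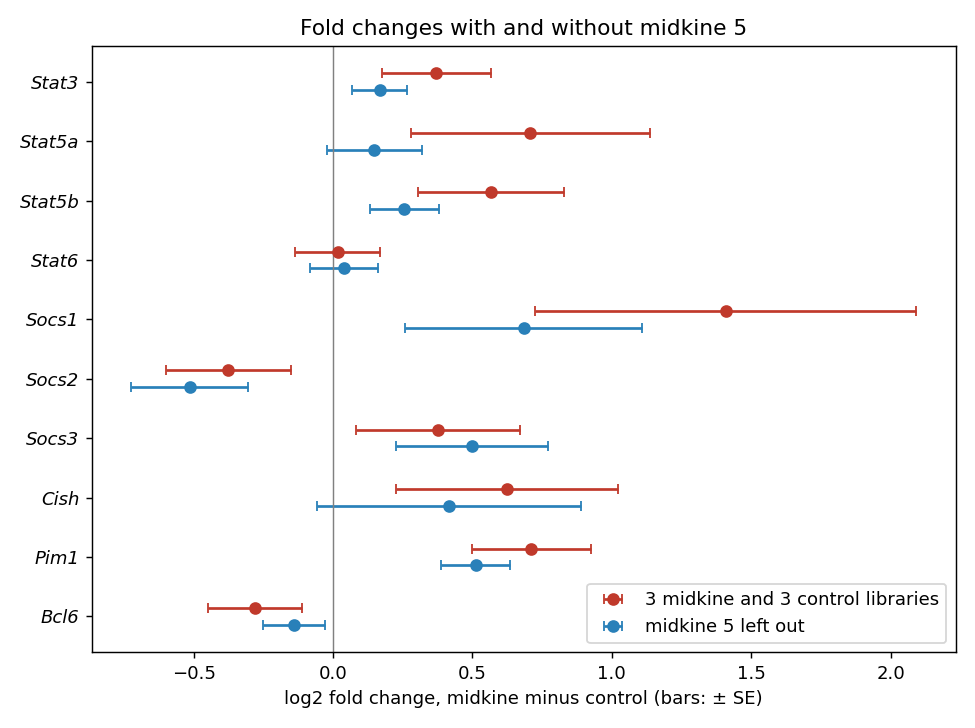
Log2 fold change (midkine minus control, horizontal axis) of each member by limma, with bars for ± SE, over all 6 libraries (red) and with midkine 5 left out (blue). Without midkine 5 the value is 0.15 for Stat5a, 0.68 for Socs1 and 0.51 for Pim1, against 0.71, 1.41 and 0.71 with all libraries.

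Tag counts give a rough order of transcript levels, since each transcript yields a tag whatever its length. In midkine libraries the order of mean normalized counts was Pim1 (1285), Stat3 (1209.7), Stat5b (369.9), Stat6 (353), Bcl6 (341), Stat5a (192), Socs1 (62.9), Socs2 (46.2), Socs3 (41.6) and Cish (10.9). Neighbours in that order overlapped except between Stat3 and Stat5b and between Socs3 and Cish. In controls it was Stat3 (915), Pim1 (776), Bcl6 (411), Stat6 (349), Stat5b (237), Stat5a (99.4), Socs2 (59.4), Socs3 (32.5), Socs1 (20.3) and Cish (6.77). There the only neighbours that overlapped were Socs3 and Socs1. In both groups the mean of each STAT exceeded the mean of each of the 4 inhibitors. By group means with midkine, Pim1 stood above Stat3, Stat5b above Stat6 and Bcl6, and Socs1 above Socs2 and Socs3. Each of these orders was the other way in controls, where Stat6 also stood under Bcl6. Library by library, Pim1 stood above Stat3 in midkine 3, 4 and 5, but the orders of Stat5b and Socs1 held in midkine 5 only. In midkine 3 and 4, Stat5b (297 and 270) stood under Stat6 (333 and 384) and Bcl6 (377 and 367), as in controls.

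Genes with the most similar profile over the 6 libraries were found for the member with the smallest p in each role group, among 10130 genes, by the root mean square difference of centred log2 values. For Stat5b these were Egln2 (0.0401), Spsb2 (0.0610) and Ticam2 (0.0619). Egln2 had 450.5, 405 and 874 normalized counts in midkine 3, 4 and 5 and 356 to 403 in controls, also with midkine 5 far above the rest. For Pim1 they were Manbal (0.0533), Ulk1 (0.0550) and Capzb (0.0788). For Socs1 the nearest genes, Gfi1 (0.440), Polr2h (0.443) and Tollip (0.471), were much less alike.

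The other genes of the pathway were counted in 8 lists, some of which share genes. Of 112 listed genes, 94 could be tested. With all 6 libraries limma called 0 of the 94 (0.0% of all genes tested), and 39 had an unadjusted p under 0.05 (19.7% of all genes). edgeR called 1 (0.0738% of all genes) and DESeq2 22 (5.89% of the 11704 genes with an adjusted p). The lists were made with earlier results of these data known, so these counts are not independent of those results. Without midkine 5 limma called 29 of the 94 higher and 15 lower, and of all genes 9.92% higher and 8.52% lower. Changes named next passed without midkine 5 unless a value says otherwise, and adjusted p-values are limma's over all genes. The medians of the lists stand beside a median of −0.0040 over all genes with 6 libraries and −0.0020 without midkine 5.

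Among the STATs and JAKs that are not members, Stat2 fell and the other 6 of 7 tested did not pass. Stat2, which carries type I interferon signals, had 155, 169 and 188 normalized counts in midkine 3, 4 and 5, against 289, 290.4 and 256 in control 1, 2 and 4. The groups were well apart, with midkine 5 the nearest to controls (log2 fold change −0.71 with all libraries, adjusted p = 0.0893; −0.78 without midkine 5, adjusted p = 0.000442). The list median was −0.16, and −0.060 without midkine 5.

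Of 15 other inhibitors, 1 rose and 2 fell, and the list median was −0.16 (−0.081 without midkine 5). Socs6 had 508, 612 and 467 normalized counts in midkine 3, 4 and 5, against 337, 383.5 and 291 in control 1, 2 and 4 (without midkine 5, log2 fold change 0.73, adjusted p = 0.000755). Socs5 had 42.5, 31.7 and 34.5 with midkine and 60.2 to 66.7 in controls (−0.76, adjusted p = 0.0184). Socs4 had 225, 209 and 130 with midkine and 277 to 314 in controls (−0.43, adjusted p = 0.0207). Socs4, Socs5 and Socs6 thus differed in direction without midkine 5. With all 6 libraries none of them passed in limma (adjusted p = 0.178, 0.1225 and 0.127).

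Of 23 receptors tested, 5 rose and 3 fell, with a list median of 0.15 in both fits. Lifr, the receptor chain for LIF, had 126, 98.2 and 83.5 normalized counts in midkine 3, 4 and 5, against 269.7, 281 and 217 in control 1, 2 and 4. Its midkine values were all well under the controls (without midkine 5, log2 fold change −1.19, adjusted p = 5.68e-05). Il6st, which encodes gp130, had 618, 651 and 499 with midkine and 873 to 1080 in controls (−0.63, adjusted p = 0.000639). Ifnar1, of the type I interferon receptor, fell as well (−0.40, adjusted p = 0.0164). Il10rb, a chain of the IL-10 receptor, had 623, 763 and 968 with midkine and 382 to 417 in controls (0.78, adjusted p = 0.000177). Crlf2 and Csf3r rose with values above every control, but Csf3r in midkine 5 (147.04) barely exceeded control 1 (146.67). Csf2ra and Il7r rose without midkine 5, but in midkine 5 itself both lay under every control. Csf2ra had 242, 192 and 116 normalized counts in midkine 3, 4 and 5 and 133 to 181 in controls. Il7r had 1356, 1352 and 506 with midkine and 808 to 1137 in controls.

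Of the cytokines, 5 of 19 could be tested, and 2 rose and 1 fell (list median 0.76, and 0.47 without midkine 5). Osm, an IL-6 family cytokine that is itself a STAT5 target, had 35.8, 63.3 and 88.0 normalized counts in midkine 3, 4 and 5, against 13.3, 22.5 and 8.88 in control 1, 2 and 4. All midkine values exceeded the controls (without midkine 5, log2 fold change 1.70, adjusted p = 0.00305). Il15 had 59.0, 69.7 and 67.2 with midkine and 33.7 to 43.1 in controls (0.74, adjusted p = 0.0228). Il12b, a subunit of IL-12, had 20.3, 16.9 and 37.2 with midkine and 30.6 to 96.4 in controls (−1.74, adjusted p = 0.00248), and midkine 5 overlapped control 4. Il6 was near the lowest level tested, at 0 to 5.80 normalized counts with midkine and 1.97 to 18.5 in controls, and did not pass.

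Of 15 STAT3-responsive genes, 8 rose and 2 fell. Cebpb, a myeloid transcription factor, had 601, 765 and 891 normalized counts in midkine 3, 4 and 5, against 449, 362 and 428 in control 1, 2 and 4 (without midkine 5, log2 fold change 0.72, adjusted p = 0.000714). Junb had 1158, 1358 and 1308 with midkine and 715 to 886 in controls (0.67, adjusted p = 0.000538). The 2 that fell were Myc and Ccnd1. Myc had 52.2, 53.8 and 42.7 with midkine and 68.1 to 101 in controls (−0.724, adjusted p = 0.0174). Ccnd1 had 1712, 1826 and 3360 with midkine and 3166 to 3228 in controls (−0.855, adjusted p = 1.93e-05). Ccnd1, and Fos among those that rose, overlapped between groups once midkine 5 was included. In midkine 5, Ccnd1 lay above every control, and Fos (553) lay under every control (678 to 1095). The STAT3 list median was 0.35 with all 6 libraries and 0.46 without midkine 5, and earlier results on much the same genes were known when the list was made.

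Of 13 STAT5-responsive genes, 6 rose and 4 fell (list median 0.46 in both fits). The 4 that fell were Bcl2, Ccnd1, Ccnd2 and Myc. Ccnd1, and Id2 among those that rose, overlapped between groups once midkine 5 was included. In midkine 5, Ccnd1 lay above every control, and Id2 lay within the control range. Id1, an inhibitor of basic helix-loop-helix factors, had 204, 259.7 and 167 normalized counts in midkine 3, 4 and 5, against 106, 102 and 105 in control 1, 2 and 4 (without midkine 5, log2 fold change 1.14, adjusted p = 6.70e-05). Pim3, a relative of Pim1, had 224, 297 and 487 with midkine and 165 to 176 in controls (0.60, adjusted p = 0.00599). The survival genes split: Bcl2l1 had 428, 406 and 401 with midkine and 248.5 to 299 in controls (0.60, adjusted p = 0.00198), and Bcl2 had 502, 414 and 588 with midkine and 741 to 803 in controls (−0.77, adjusted p = 0.00015).

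Of 13 STAT6-responsive genes of macrophages, 6 rose and 2 fell (list median 0.36, and 0.49 without midkine 5). Ccl24, a chemokine for eosinophils, had 49.3, 67.6 and 76.2 normalized counts in midkine 3, 4 and 5, against 18.5, 15.3 and 17.8 in control 1, 2 and 4 (without midkine 5, log2 fold change 1.70, adjusted p = 0.000339). Tgm2, a transglutaminase, had 1275, 1564 and 1174 with midkine and 770 to 867 in controls (0.76, adjusted p = 0.00016). Klf4 fell (−0.78, adjusted p = 0.000434), and so did Mgl2. Of the genes that rose, Chil3, Mrc1 and Pparg overlapped between groups once midkine 5 was included. Chil3 and Mrc1 in midkine 5 lay within the control range, but Pparg (31.8) lay under every control (49.3 to 86.9).

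Of 11 partners and targets of BCL6, 3 rose and 2 fell (list median −0.10, and 0.059 without midkine 5). Prdm1, which BCL6 represses in B cells, had 264, 311 and 288 normalized counts in midkine 3, 4 and 5, against 147, 182 and 124 in control 1, 2 and 4 (without midkine 5, log2 fold change 0.94, adjusted p = 0.000498). Ccl7, a monocyte chemokine, had 45.4, 62.3 and 50.8 with midkine and 15.3 to 26.7 in controls (1.32, adjusted p = 0.00331). Ccl2 rose as well (1.26, adjusted p = 0.0153). Irf8 had 3447, 3783 and 4314 with midkine and 4916 to 5459 in controls (−0.50, adjusted p = 0.00208). Cd69 also fell, with 75.4, 70.7 and 75.3 with midkine and 103 to 127 in controls (−0.64, adjusted p = 0.0120). A link between Bcl6 and the levels of these genes was not tested.

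**Figure D4:**
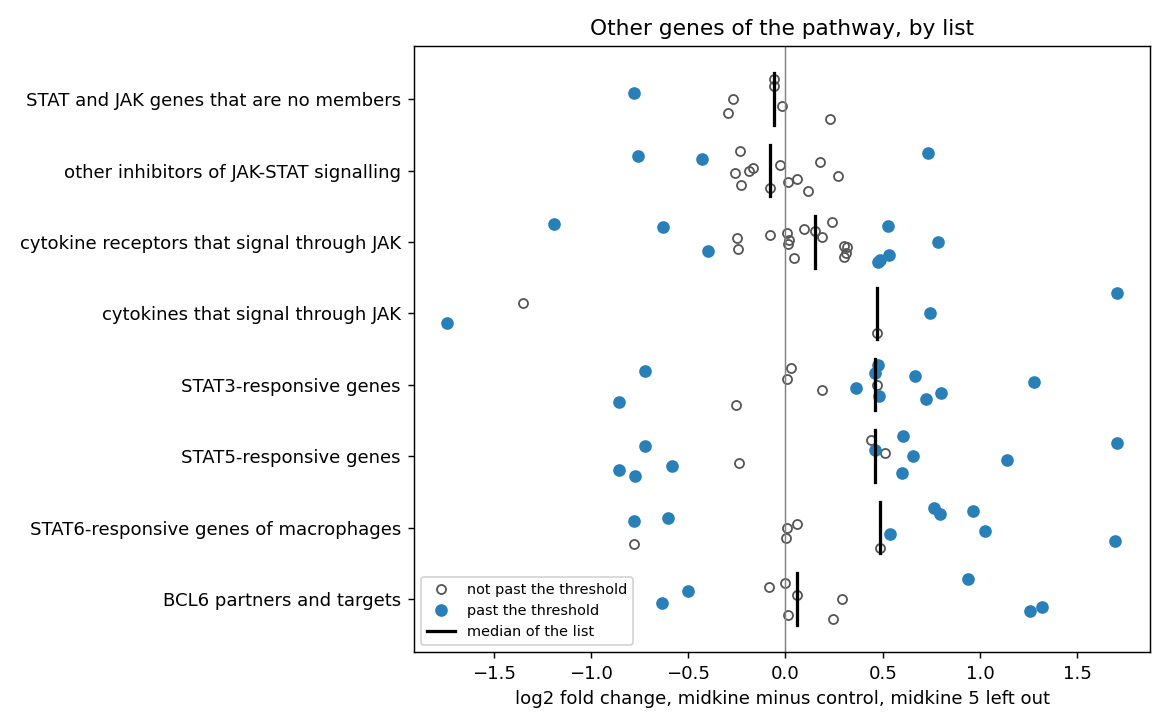
Log2 fold change (midkine minus control, midkine 5 left out, horizontal axis) of each tested gene of the 8 pathway lists, filled where limma's adjusted p was under 0.05, with a black bar at the list median. Filled points lie on both sides of 0 in every list but that of the STATs and JAKs, where 1 gene is filled and lies below 0.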

How the data were processed

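RNA of 3 midkine and 3 control samples was sequenced as QuantSeq 3′ libraries, per the labels. The submitters' processing notes name TopHat2 2.0.10, Bowtie 1.0.0, SAMtools 0.1.19, HTSeq, DESeq2 and GRCm38. The sources used here give neither annotation nor strand setting nor gene filter. The deposited signal is normalized counts per gene symbol, by the authors. Each library's values were whole multiples of 1 step (100% within 0.01 reads), and dividing by it gave whole reads. A floor of 3 reads was at most 5.01e-05% of a library. There were 0 further per-sample columns.

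The main test was limma 3.58.1 (R 4.3.3; trend) on log2(value + 1), a scale that understates the change of low genes, for genes with a mean of at least 5 over 6 libraries (13543 of 15443, all 10 members among them). Tests were two-sided, Benjamini-Hochberg adjusted over all genes tested, with a threshold of 0.05. Leave-one-out fits, edgeR 4.0.16 (quasi-likelihood, TMM) and DESeq2 1.42.0 on the whole reads started from the same genes, of which DESeq2 gave 11704 an adjusted p. The code was tested on simulated counts. All 10 members and, per list, the 4 genes with the smallest p and any that passed could be named, and Il6 and Gm26885 were named after their values were seen. Members and lists were chosen with earlier results of these data known.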

Additional observations from a re-analysis of the deposited data

How the results depend on the processing

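Each member's fold change was recomputed under up to 16 other settings, 159 values in all, of which 154 kept the direction and stayed past or short of the threshold as before. Stat6 changed sign under 3 settings, none past the threshold (range over all settings −0.06 to 0.071): −0.038 with quantile normalization, −0.047 without midkine 4 and −0.06 without control 4. Pim1 passed without midkine 5 (log2 fold change 0.51 with limma and with edgeR), and its fold change ranged from 0.51 to 0.82 with adjusted p from 0.00600 to 0.443. The count of members called was 0 under the settings other than these, where it was 1. Leaving out 1 library at a time, that count ranged from 0 to 1, the count of all genes called from 0 to 2497 and the count of other pathway genes from 0 to 44, the high end in each case without midkine 5.

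With all 6 libraries, genes called numbered 10 with edgeR, 689 with DESeq2, 10 with a pseudocount of 5, 9 with no filter on low values and 16 with quantile normalization. Other pathway genes called numbered 1, 22, 1, 1 and 2 in the same order. edgeR without midkine 5 called 2508 genes and 44 of the other pathway genes. The cause of these differences was not tested. The difference in Stat5a share changed sign without midkine 5 (−1.43 percentage points), and leaving out 1 library at a time it ranged from −1.43 to 5.93.

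No paired analysis was possible because the groups share fewer than 2 replicate numbers. Cish had at most 16 reads in a library, and the filter at a mean of 20 left it out. DESeq2 gave it no adjusted p.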
